A study of Mus musculus with 12 samples.

Results

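AMPK, the AMP-activated protein kinase, is a trimer of a catalytic alpha, a scaffold beta and a nucleotide-sensing gamma subunit. When AMP or ADP rises relative to ATP, binding to gamma favours phosphorylation of alpha by an upstream kinase, and the active enzyme turns off lipid synthesis and turns on catabolism and mitochondrial upkeep. Ppargc1a, the coactivator of mitochondrial biogenesis deleted in this study, is a known AMPK substrate, and in macrophages AMPK is known for restraining inflammatory signalling. The 9 genes described here are the 7 AMPK subunit genes (Prkaa1, Prkaa2, Prkab1, Prkab2, Prkag1, Prkag2 and Prkag3) and the genes of its 2 main upstream kinases, Stk11 (LKB1) and Camkk2 (CaMKK2), out of 21135 gene symbols in the table. They were chosen by name, with earlier results of these data known. The rows of Prkag2 were singled out on measured values, namely its lower level after MPTP in control cells, so its values are given as a description, and calls are counted over the other members.

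RNA-seq profiles are labelled as flow-sorted midbrain microglia, the brain's own macrophages, of mice. Control animals (WT) are labelled Ppargc1a FF, that is, they carried the conditional allele without CreER. Deficient animals (KO) are labelled Ppargc1a FF CreER, where CreER is a recombinase switched on by tamoxifen whose promoter the labels do not name. All groups are labelled 6 weeks after tamoxifen, and each genotype received either PBS or MPTP, a toxin of dopaminergic neurons. The sources used here give neither the animals' age nor whether a sample is 1 animal or a pool, so any p-value reflects variation among profiles that may be technical.

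The labels name 12 samples, 3 in each of 4 groups, but only 6 of the 12 deposited columns were separate profiles, namely columns 1 and 2 of both PBS groups, WT MPTP 1 and KO MPTP 2. The others followed from these by fixed arithmetic in all but 49 of 67354 rows. KO MPTP 1 was 1.02 times KO PBS 2, so that 1 profile stood under both treatments, and it was left out of the tests. Values are taken as FPKM, a level per transcript length and sequencing depth, and summed to between 388861 and 434022 per column, with the read depth unknown. Ppargc1a followed the genotype labels, at 5.70, 6.21 and 2.72 FPKM in the WT profiles and at 0.33, 0.12 and 0.42 FPKM in the KO profiles. Nearly all of this level sat in row Ppargc1a_1, 1 of the 49 rows that departed from the arithmetic, which limits this check. Of 12 microglia and macrophage markers 11 were found, with a summed level between 1234 and 1376 FPKM. However, Cx3cr1, P2ry12, Sall1 and Siglech were under 1 FPKM, with Sall1 at 0 in all 6. Cd68 and Tyrobp were the highest, with means of 479 and 433 FPKM, and Tmem119 had a mean of 2.02 FPKM. Whether the cells were microglia, as labelled, was not tested. The summed levels of the neuronal, vessel, lymphocyte and skeletal muscle markers found were at most 0.45 FPKM, those of oligodendrocytes between 1.39 and 2.00 FPKM, those of astrocytes between 2.74 and 3.17 FPKM and those of granulocytes between 3.68 and 5.76 FPKM. Nearly all of the astrocyte sum was Aldh1l1, with Gfap and Slc1a3 at 0.04 FPKM or less. Nearly all of the granulocyte sum was S100a8, with Ly6g at 0.01 FPKM or less. The part of other cell types in the results was not tested.

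Prkag2 has the longest span of the 9 genes and is the only one with more than 1 start in RefSeq. In the GENCODE M21 annotation of GRCm38 it spans 24862744 to 25100642 on the minus strand of chromosome 5 and has 10 transcripts, and RefSeq gives it 3 starts. Starts 2 and 3 lie 104.9 and 192.1 kb downstream of start 1. The deposited table, whose submitters name the build mm9, splits it into 9 rows, and the sources used here do not say which transcript or start a row stands for. The 100 bases before each RefSeq start (GRCm38.p6, minus strand, 5′ to 3′) are shown because the starts are different in kind. Capitals mark GGGCGG, a GC box, or AGGTCA, a core bound by nuclear receptors, on either strand. The 3 windows are chr5:25100643-25100742, chr5:24995754-24995853 and chr5:24908510-24908609.
Prkag2 start 1: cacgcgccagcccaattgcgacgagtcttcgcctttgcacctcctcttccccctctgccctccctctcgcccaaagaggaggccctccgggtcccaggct
Prkag2 start 2: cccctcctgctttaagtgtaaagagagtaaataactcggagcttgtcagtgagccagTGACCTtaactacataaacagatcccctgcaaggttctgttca
Prkag2 start 3: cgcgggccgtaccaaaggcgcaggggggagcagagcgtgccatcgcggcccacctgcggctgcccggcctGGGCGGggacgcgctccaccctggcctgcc

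Start 1 and start 3 had GC contents of 67.0% and 79.0% with 7 and 12 CpG dinucleotides, against medians of 55.0% and 3 over 32851 RefSeq promoter windows of the same length. Start 2 had 45.0% and 1. Within these windows GGGCGG stood before start 3, as in 24.7% of all such windows, and AGGTCA before start 2, as in 5.88%. In the longer RefSeq promoter sequences GGGCGG was also found at start 1. These matches are descriptions of the letters and not binding sites.

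The catalytic subunit genes were at nearly equal levels and varied little. Prkaa1, which encodes alpha1, stood at 9.77 and 8.86 FPKM in WT PBS 1 and 2, at 10.3 in WT MPTP 1, and read 9.56, 9.95 and 10.1 FPKM in KO PBS 1, KO PBS 2 and KO MPTP 2. Prkaa2, which encodes alpha2, the form best known from muscle, was at 9.35 and 7.68, 8.67, 8.54 and 7.66, and 8.39 FPKM in the same order. For Prkaa1 WT MPTP 1 and KO MPTP 2 lay above the 4 profiles labelled PBS, whereas for Prkaa2 the groups overlapped and the WT PBS pair spanned nearly the whole range. MPTP profiles lay above these 4 for 20.9% of all genes tested, and above the 3 without KO PBS 2 for 28.3%. Prkaa1 made up between 51.1% and 56.5% of the summed alpha level in every profile.

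The scaffold genes were unequal. Prkab1, which encodes beta1, had 7.86 and 9.75 FPKM in WT PBS 1 and 2 and 8.46 FPKM in WT MPTP 1, and among the KO profiles 7.96, 9.25 and 9.25 FPKM. Prkab2, which encodes beta2, had between 2.10 and 2.44 FPKM, with the lowest value in WT MPTP 1 and the highest in KO MPTP 2. Prkab1 made up between 77.4% and 81.5% of the summed beta level. For Prkab1 the gap within the WT PBS pair was 0.28 on the log2(FPKM + 1) scale, wider than any change between groups in the fit.

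Among the gamma genes, Prkag1, the gene of the widely expressed gamma1, was at 18.0 and 19.6 FPKM in WT PBS, 19.6 in WT MPTP 1, 16.9 and 19.6 in KO PBS columns 1 and 2, and 19.3 in KO MPTP 2. Prkag3, whose gamma3 is known from skeletal muscle, was at or near 0, with at most 0.03 FPKM in a separate profile. It was the only member to miss the filter, which asked for 1 FPKM or more in 3 of the 6 profiles, and its 3 rows held 0.02 FPKM or less each. The values between 0.30 and 0.32 FPKM listed for it in column 3 of each group come from the constant of 0.1 that those computed columns add to every row.

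Prkag2, which encodes gamma2, the subunit known from inherited cardiomyopathy with glycogen storage, was the member that differed between profiles. It was at 28.4 and 28.1 FPKM in WT PBS 1 and 2 and at 17.0 in WT MPTP 1, a ratio of 1.66 between the PBS mean and the MPTP profile. It was at 26.6 FPKM in KO PBS 1 and 18.9 in KO MPTP 2, a ratio of 1.41. In both genotypes the MPTP profile lay below the PBS profiles, and these 3 PBS and 2 MPTP profiles did not overlap, as for 0.827% of all genes tested in that direction (0.451% with KO PBS 2 among the PBS profiles). Since Prkag2 was chosen for this difference, nothing is read from that share. KO PBS 2, the profile deposited under both treatments, had 127 FPKM, 4.48 times the highest of the other 5, whereas its scaled copy under KO MPTP 1 had 17.5 FPKM. Prkag2 made up 61.2%, 58.9% and 61.1% of the summed gamma level in WT PBS 1, WT PBS 2 and KO PBS 1, and 46.4% and 49.5% in WT MPTP 1 and KO MPTP 2. Prkag1 was the more abundant gamma gene in the MPTP profiles only, among the 5 tested. This order too rests on row Prkag2_4, described below, in which a computed column departed from its relation.

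**Figure D1:**
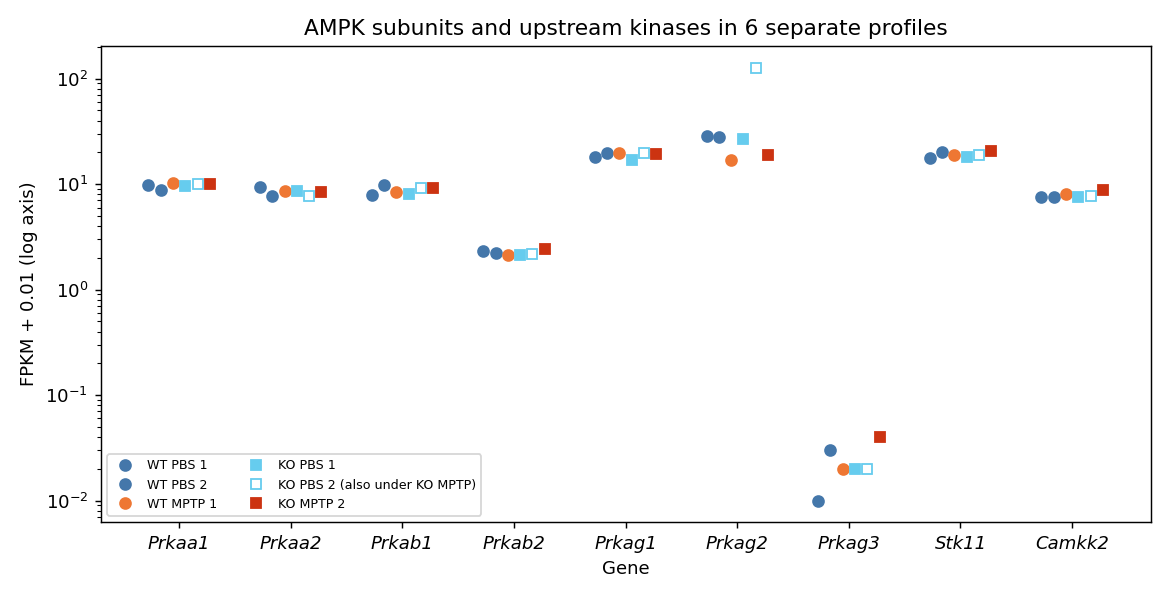
Level of the 9 genes in the 6 separate profiles. The y axis is FPKM + 0.01 on a log axis, circles are WT and squares KO, and the open square is KO PBS 2, which also stands under KO MPTP. Prkag3 lies near 0 and the other genes keep to a narrow band, while Prkag2 ran from 17.0 to 127 FPKM.

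The upstream kinase genes varied little. Stk11, the gene of LKB1, the main AMPK kinase under energy stress, was at 17.7 and 20.2 FPKM in WT PBS, 18.9 in WT MPTP 1, 17.9 and 18.8 in KO PBS columns 1 and 2, and 20.5 in KO MPTP 2. Camkk2, whose product activates AMPK when calcium rises, was at 7.57 and 7.54, 8.06, 7.50 and 7.75, and 8.83 FPKM in the same order. KO MPTP 2 was the highest profile for both. For Camkk2 WT MPTP 1 and KO MPTP 2 lay above the 4 profiles labelled PBS, as for 20.9% of all genes tested. For Stk11 WT PBS 2 was next to the highest and the groups overlapped. In order of mean level over the 6 profiles, Prkag2 (41.0 ± 42.5 FPKM, SD) came first, then Stk11 (19.0 ± 1.16) and Prkag1 (18.8 ± 1.11), which did not differ beyond their spread, then Prkaa1 (9.76 ± 0.51), Prkab1 (8.76 ± 0.78), Prkaa2 (8.38 ± 0.64) and Camkk2 (7.88 ± 0.51), whose ranges overlapped from each to the next, and last Prkab2 (2.23 ± 0.12) and Prkag3 (0.01 ± 0.01). The mean and SD of Prkag2 include KO PBS 2. By its median, 27.4 FPKM, it was first as well, above Prkag1 (19.4) and Stk11 (18.9). Both ranks rest on row Prkag2_4, described below, in which a computed column departed from its relation. Without that row Prkag2 summed to at most 5.35 FPKM in a separate profile.

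Almost all of the variation of Prkag2 sat in 1 of its 9 rows. Row Prkag2_4 held 23.59 and 23.06 FPKM in WT PBS 1 and 2, 13.04 in WT MPTP 1, 22.52 in KO PBS 1, 122.24 in KO PBS 2 and 13.57 in KO MPTP 2. The sum of the other 8 rows was 4.79 and 5.03, 3.93, 4.11, 4.93 and 5.35 FPKM in the same order. The MPTP profiles were the lowest and the highest of these sums, so the rows outside Prkag2_4 showed no common direction with MPTP. Prkag2_8, for example, was at 1.19 and 1.46 FPKM in WT PBS, 0.67 in WT MPTP 1, 1.37 and 1.64 in KO PBS columns 1 and 2, and 2.21 in KO MPTP 2, lower with MPTP in WT and higher in KO. Prkag2_2 ranged only from 1.47 to 2.21 FPKM, with its lowest value in KO MPTP 2. The remaining 6 rows were each under 1 FPKM in every separate profile.

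Prkag2_4 was also a row in which a computed column departed from its relation. KO MPTP 1 held 12.48 FPKM where 1.02 times KO PBS 2 gives 124.68. Divided by 1.02, the 12.48 corresponds to 12.24 FPKM, 110.0 below the 122.24 deposited as KO PBS 2. KO PBS 3, at 71.75 FPKM, did follow from the mean of 22.52 and 122.24. Prkab1 held the other departing row among the 9 genes. Prkab1_5 was at 2.37 and 2.31 FPKM in WT PBS, 1.15 in WT MPTP 1, 2.19 and 2.33 in KO PBS columns 1 and 2, and 1.56 in KO MPTP 2, and the 1.36 deposited as KO MPTP 1 corresponds to 1.33 FPKM, 1.00 below KO PBS 2. The 4 profiles labelled PBS lay above WT MPTP 1 and KO MPTP 2 in this row. How many of all single rows have such an order was not computed, so nothing is read from it. The sum of the other 8 rows of Prkab1 did not share this order, at 5.49 and 7.44, 7.31, 5.77 and 6.92, and 7.69 FPKM in the same order. How the departing values arose was not tested.

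**Figure D2:**
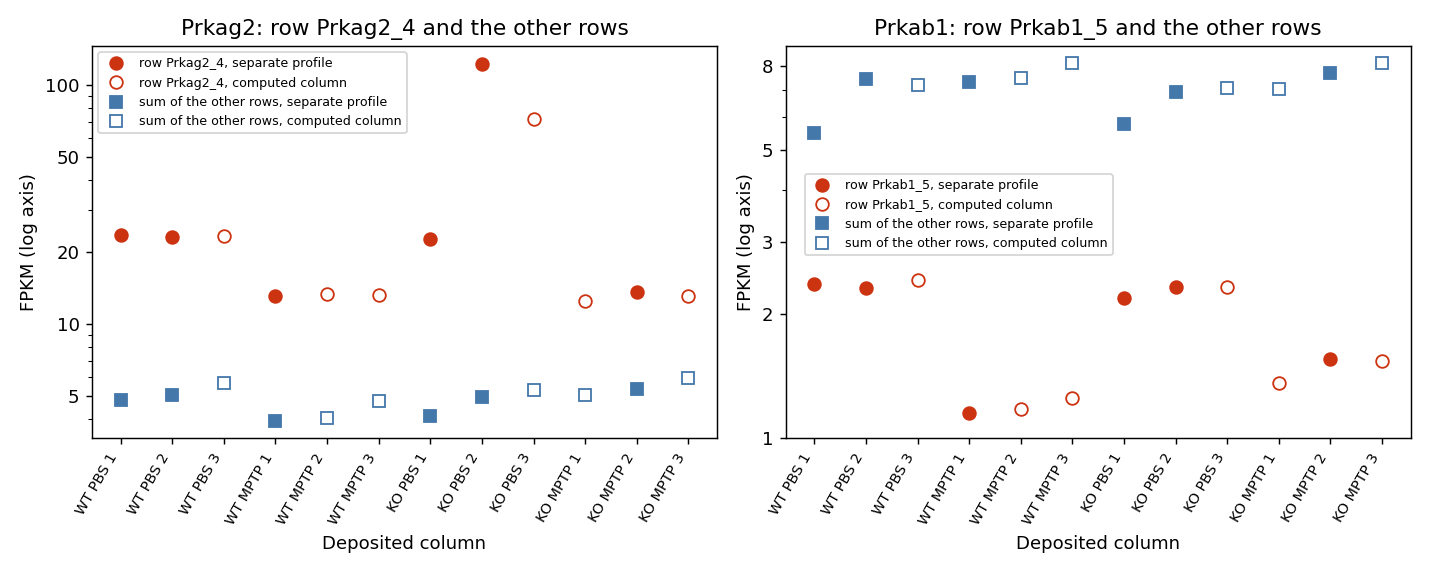
Row Prkag2_4 and the other rows of Prkag2 (left), and row Prkab1_5 and the other rows of Prkab1 (right), in all 12 deposited columns. The y axes are FPKM on log axes, circles are the single row, squares the sum of the other rows, filled marks separate profiles and open marks computed columns. Prkag2_4 stands at 122.24 FPKM in KO PBS 2 and at 12.48 in KO MPTP 1, while the other rows of Prkag2 stay between 3.93 and 5.93 FPKM.

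Setting WT MPTP against WT PBS asked how control cells responded to the toxin. Prkag2, chosen with this value known, was at −0.70 on the log2(FPKM + 1) scale. Of the 7 other members tested 0 were called, against 0.254% of the 10636 genes tested (limma, Benjamini-Hochberg adjusted p under 0.05). They lay between −0.07 and 0.14, where the median of all genes was 0.04, and each had an adjusted p of 1 (limma). At an unadjusted p under 0.05, 0 of these 7 were found, against 2.69% of all genes. Prkaa1 had the largest change of the 7, 0.14 ± 0.10 (SE), and WT PBS 2 less WT PBS 1 was −0.13. In 4 of the 8 members the WT PBS pair differed by more than the MPTP profile did from their mean. With departing rows (described above) left out of the sums, the value was −0.26 for Prkag2 and 0.17 ± 0.14 for Prkab1, which was not called.

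In KO cells the comparison of MPTP with PBS rested on 1 profile in each group, KO MPTP 2 and KO PBS 1. Of the 7 members other than Prkag2 none was called by limma, against 0.291% of all genes, and 0 had an unadjusted p under 0.05, against 9.24%. They lay between −0.02 and 0.21, with 6 above 0, but 86.5% of all genes also lay above 0 in this comparison and their median was 0.09. TMM rescaling moved that median to −0.002 and left 5 of the 7 above 0. The highest were Camkk2 at 0.21 ± 0.11 (SE; limma, adjusted p = 0.572), Prkab1 at 0.19 ± 0.14 and Stk11 at 0.19 ± 0.11. With KO PBS 2 alone in place of KO PBS 1, Prkag1 went from 0.18 to −0.02, Prkab1 to 0 and Prkaa2 from −0.02 to 0.12. The change of Prkag2 was −0.47, and −2.69 with KO PBS 2 alone, a value that rests on row Prkag2_4. With departing rows left out of the sums, the −0.47 turned to 0.31.

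Setting KO PBS against WT PBS asked what the deficiency did without toxin. None of the 7 members other than Prkag2 was called, against 0.226% of all genes, and at an unadjusted p under 0.05 there were 0 of 7 against 4.45% (limma). The lowest value was that of Prkag1, −0.14 ± 0.09 (SE; adjusted p = 0.909), where the median of all genes was −0.06. Prkaa1 was at 0.04 ± 0.10 (SE) and Prkaa2 at 0.01 ± 0.11. Prkag2 was at −0.08 with KO PBS 1, and at 2.13 when KO PBS 2 was taken alone as the KO PBS profile. In KO PBS 2, row Prkag2_4, in which a computed column departed from its relation, held 122.24 of the 127.17 FPKM. The other rows summed to 4.93 FPKM there, against 4.79 and 5.03 in WT PBS 1 and 2.

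Between KO MPTP and WT MPTP, again with 1 profile in each group, none of these 7 was called, against 0.132% of all genes, and 0 of 7 had an unadjusted p under 0.05, against 3.62% (limma). Prkab2 had the highest value, 0.15 ± 0.11 (SE), then Prkag2 at 0.15, and the lowest was Prkaa2 at −0.04 ± 0.13. For the interaction, the MPTP change in KO less that in WT, there were no calls among the 7, against 0.0752% of all genes, and 0 of 7 at an unadjusted p under 0.05, against 5.18% (limma). Prkab1 had the highest interaction, 0.24 ± 0.18 (SE), and Prkag2 had 0.23. Counting only the highest row of each symbol turned the interaction of Prkab1 to −0.081. Counting KO PBS 2 as KO PBS turned that of Prkag2 to −0.877, a value that rests on row Prkag2_4. KO PBS 2 has the same genotype under either of its labels, so the 3 WT profiles were also set against the 3 KO profiles. The ranges overlapped for all 8 members, whereas they did not overlap for 8.06% of all genes. With 3 against 3, an exact permutation test cannot go below a p of 0.10.

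**Figure D3:**
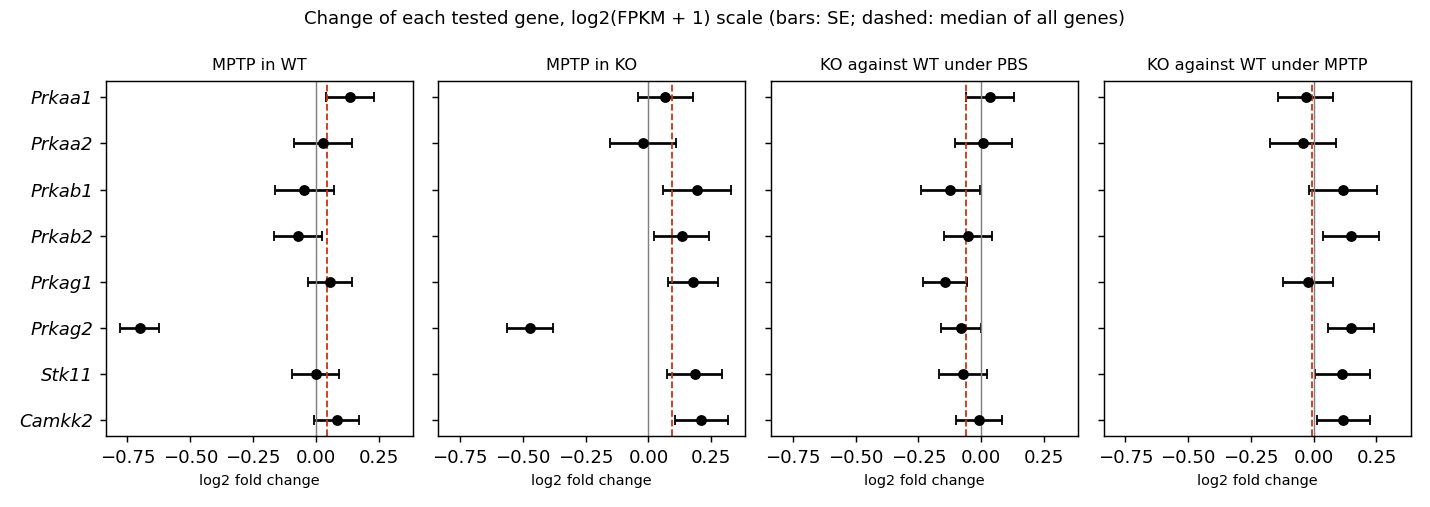
Change of the 8 tested genes in 4 comparisons, on the log2(FPKM + 1) scale. Points are fitted log2 fold changes, bars are SE, the grey line is 0 and the dashed line the median of all 10636 genes. All points other than Prkag2 under MPTP lie between −0.14 and 0.21.

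On single rows the same fit tested 19093 rows, 13 of them from the members, and called none in any of the 5 comparisons (0%; limma). At an unadjusted p under 0.05 there were between 650 and 1408 rows in a comparison, and outside Prkag2 1 member row, Prkab1_5 with MPTP in WT. Among the leading rows of the other members, Camkk2_2, with 59.9% of its gene's mean, ranged from 4.44 to 5.03 FPKM, and Stk11_3, with 69.2%, from 11.9 to 14.5 FPKM. Prkab1_1, with 56.3%, ranged from 4.05 FPKM in WT PBS 1 to 5.76 in WT MPTP 1, and Prkab2_2, with 89.3%, from 1.73 to 2.28 FPKM. Prkaa1, Prkaa2 and Prkag1 have 1 row each.

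The genes around AMPK were read from 5 lists with 71 genes in all, of which 70 were found and 61 tested. Ppargc1a was the only one called in any comparison (limma). It fell by 0.90 on the log2 scale with MPTP in WT, from 1 WT MPTP profile. In KO against WT it fell by 2.39 under PBS, from 1 KO PBS profile, and by 1.39 under MPTP, from 1 profile in each group. Nearly all of its level sat in row Ppargc1a_1, which is itself a departing row, and without such rows it missed the filter. Among the 19 upstream regulators, which include the LKB1 partners Strada and Cab39, the folliculin complex and the sestrins, 17 were tested, 0 were called in any comparison, and the calcium sensor gene Calm2 was highest (172 FPKM). Their median was 0.08 with MPTP in WT, 0.08 with MPTP in KO and −0.03 for KO under PBS, where all genes had 0.04, 0.09 and −0.06. Flcn, a regulator of AMPK and lysosomal signalling, had the largest of their changes with MPTP in KO, 0.29 ± 0.09 (SE; adjusted p = 0.36).

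Of the kinases that LKB1 also activates, 10 were tested and none was called. The salt-inducible kinase gene Sik1 and the polarity kinase gene Mark2 were highest, at 15.6 and 15.3 FPKM. Sik1 was at 18.8 and 15.4 FPKM in WT PBS and between 14.0 and 15.6 in the other profiles. Of 21 tested AMPK substrates, 20 were not called, among them the mitochondrial fission receptor gene Mff (39.7 FPKM). Among the CaM kinases 5 were tested and among the enzymes of adenine nucleotides 8, with none called. Camk1 led the first at 65.6 FPKM, and Ak6 of the second was at 66.7 FPKM. At an unadjusted p under 0.05 there were between 1 and 3 of the 61 genes in each comparison, against between 2.69% and 9.24% of all genes (limma).

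**Figure D4:**
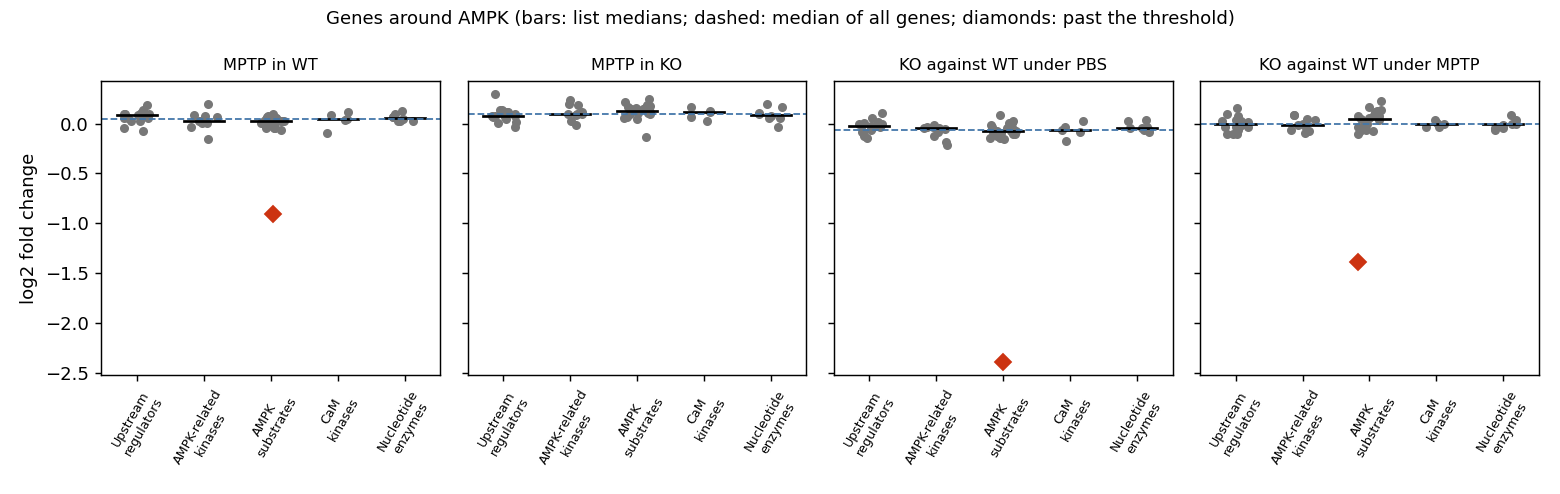
Change of 61 tested genes around AMPK in 4 comparisons, on the log2(FPKM + 1) scale. Points are genes, grey where not called and red diamonds where called, bars are list medians and the dashed line is the median of all genes. Each diamond is Ppargc1a, at −0.90, −2.39 and −1.39.

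The genes whose pattern over the 6 profiles was most like that of Prkag2 were Hirip3, with a Pearson correlation of 0.88, then Hist1h2ap (0.85), Mthfd2 (0.73), Relb (0.57) and Lsm7 (0.56), out of 161 genes with a range of at least 0.5 on the log2 scale. Without KO PBS 2 the correlations were 0.21, 0.66, −0.80, 0.60 and 0.09, so that those of Hist1h2ap and Relb stayed above 0.5 and the other 3 did not. The 5 genes were picked with KO PBS 2 included, so other genes may be more alike without it. In the other profiles too, departing row Prkag2_4 held between 71.7% and 84.6% of the Prkag2 sum. The genes are given as a description. Genes are named for the opposite strand of Prkag2, Prkag2os1 and Prkag2os2, and they were at 0.17 FPKM or less and between 0.39 and 0.69 FPKM. The sources used here do not say whether counting used the strand, so reads of such partners cannot be told apart.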

How the data were processed

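The authors deposited 1 table of 67355 rows by 12 columns. The deposited values were taken as FPKM because Cufflinks, which writes that unit, is named in the submitters' processing notes beside CASAVA 1.5, Bowtie 0.12.7, TopHat and the build mm9, with no role or order. A row with text in a cell (1 row) was left out, and rows were summed per symbol after removing the trailing number. Columns were tested against fixed relations (1.02 times a column, or 0.1 plus 0.99 times a mean) within 0.0101 and 0.00995 FPKM, which rounding allows. limma 3.58.1 in R 4.3.3 was fitted to log2(FPKM + 1) with its variance trend for 10636 genes that reached 1 FPKM in 3 or more of the 6 separate profiles, 5 profiles in 1 fit, 1 mean per group and Benjamini-Hochberg adjustment over all genes at 0.05. Only the WT PBS pair gives residual spread (1 degree of freedom, 9.09 prior), and single profiles were assumed to vary like it. Fold changes understate low genes.

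Replicate numbers are shared across groups in the labels, but nothing in the labels ties them to an animal, litter or day. The members, lists and tests were chosen with earlier results of these data known. Named genes were every member, the called genes of each list or otherwise its 2 highest, and the 5 genes most like Prkag2, leaving out predicted genes, small RNAs and olfactory receptors. Some genes that this rule names are not reported here. Promoter letters come from RefSeq (GRCm38.p6), with all 9 members matched. No protein sequence was used here.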

Additional observations from a re-analysis of the deposited data

Results flagged for a closer look

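Prkag2 had 127.17 FPKM in KO PBS 2, a profile that the tests did not use, against at most 28.38 FPKM in the 5 profiles they did. Row Prkag2_4 alone held 122.24 FPKM there. No interaction was called among the members, and no group had the 4 profiles that a check for a stray sample needs.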

How the results depend on the processing

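Of the 19 alternative settings, 3 were chosen after seeing the data: rows off the relations left out of the sums, KO PBS 2 counted as KO PBS on the values of KO MPTP 1 over 1.02, and WT MPTP 2 in place of WT MPTP 1. TMM factors were computed from the FPKM values, not from counts. The call of 1 member for MPTP in WT became 0 without a filter on low values and with quantile normalization. It also became 0 with KO PBS 2 counted as KO PBS or as KO MPTP, and with the highest row per symbol. The same held with rows off the relations left out. It held too with KO PBS 2 counted as KO PBS on the values of KO MPTP 1 over 1.02. Leaving out genes off the relations also gave 0, but that setting removes Prkag2 and Prkab1 before the fit, so Prkag2 could not be called. With 12 columns as libraries the call was Prkaa1, higher at 0.15 (limma, adjusted p = 0.00847), in place of Prkag2. That setting counts the computed columns as if they were replicates. It called 2150 of 10636 genes, against 27 in the fit as reported, so the call of Prkaa1 is not read as a change. The call counts include Prkag2, which was chosen with its difference known, so nothing is read from them. Its change stayed at −0.70 without a filter and with KO PBS 2 counted under either label, was −0.74 with quantile normalization and −0.79 with the highest row, and was −0.26 with departing rows left out of the sums. For MPTP in KO, 0 calls became 1, Prkag2, with a filter at 5 FPKM, with TMM scaling and with the KO MPTP 1 values counted as KO MPTP. Leaving out 1 replicate of the fit with KO PBS 2 as KO PBS gave between 0 and 1 calls for MPTP in WT, for MPTP in KO, for KO against WT under PBS and for the interaction. For KO against WT under MPTP no setting called a member.

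The replicate number could be blocked only with KO PBS 2 counted as KO PBS. That fit with the replicate block called 0 members in each comparison, and Prkag2 for MPTP in WT was at −0.15. The differences between replicates 1 and 2 in WT PBS and KO PBS had a correlation of 0.23 over 10636 genes. With 1 such pairing in the data the numbers are not taken to pair the profiles.

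For single genes, 652 of the values recomputed under the alternatives kept their direction and their side of the threshold, and 77 changed sign or went to 0. None of the 77 was called in the fit as reported, and only Prkag2 without KO PBS replicate 1 was called after the change. The values after the change were as follows, each on the log2(FPKM + 1) scale. TMM scaling gave −0.012 for Prkaa2 with MPTP in WT, −0.029 for Prkaa1 with MPTP in KO and 0.051 for Camkk2 in KO against WT under PBS. Quantile normalization gave −0.005, −0.038 and 0.048 for the same 3, and 0.002 for Prkab2 in KO against WT under PBS. Taking the highest row per symbol gave 0.27 for Prkab1 and 0.057 for Stk11 with MPTP in WT, and for Prkab1 −0.10 in KO against WT under MPTP and −0.081 for the interaction. Leaving rows off the relations out of the sums gave 0.17 for Prkab1 with MPTP in WT and 0.31 for Prkag2 with MPTP in KO. With WT MPTP 2 in place of WT MPTP 1, Stk11 was at 0.026 with MPTP in WT. With 12 columns as libraries, Stk11 was at 0.011 with MPTP in WT and Prkaa2 at 0.001 with MPTP in KO. The same setting gave −0.061 for Prkaa2, 1.15 for Prkag2 and 0.012 for Camkk2 in KO against WT under PBS, and −1.065 for the interaction of Prkag2.

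With KO PBS 2 counted as KO MPTP, Prkag2 was at 0.87 with MPTP in KO. Counted as KO PBS, it gave 0.047 for Prkaa2 with MPTP in KO, −0.06 for Prkaa2, 1.025 for Prkag2 and 0.012 for Camkk2 in KO against WT under PBS, and interactions of 0.018 for Prkaa2 and −0.877 for Prkag2. On the values of KO MPTP 1 over 1.02, Prkaa2 had 0.046, −0.06 and 0.018 in these comparisons and Camkk2 0.011 in KO against WT under PBS, while Prkag2 did not change sign. Without WT PBS replicate 1, Prkaa2 was at 0.047 with MPTP in KO, Prkag2 at 1.033 and Camkk2 at 0.014 in KO against WT under PBS, and the interaction of Prkag2 was −0.884. Without WT PBS replicate 2, Prkaa2 was at −0.098, Prkab1 at 0.095 and Stk11 at 0.091 with MPTP in WT, and Prkaa2 at 0.047 with MPTP in KO. In KO against WT under PBS this gave −0.002 for Prkaa1, −0.187 for Prkaa2, 0.113 for Prkab1, 0.013 for Prkag1, 1.018 for Prkag2, 0.054 for Stk11 and 0.009 for Camkk2. The interactions were 0.145 for Prkaa2, −0.037 for Prkag1 and −0.87 for Prkag2. Without KO PBS replicate 1, KO PBS 2 stands alone. Then Prkaa2 was at 0.117, Prkab1 at 0 and Prkag1 at −0.02 with MPTP in KO. In KO against WT under PBS, Prkaa2 was at −0.13, Prkab1 at 0.071, Prkag1 at 0.054, Prkag2 at 2.13 and Camkk2 at 0.033, and the interactions were 0.088 for Prkaa2, −0.078 for Prkag1 and −1.984 for Prkag2.

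With the replicate block, Prkaa2 was at −0.069, Prkab1 at 0.073 and Stk11 at 0.062 with MPTP in WT, and Prkaa2 at 0.145 and Prkab1 at −0.021 with MPTP in KO. In KO against WT under PBS the blocked values were −0.06 for Prkaa2, 1.025 for Prkag2 and 0.012 for Camkk2. Under MPTP they were 0.005 for Prkaa1, 0.154 for Prkaa2, −0.121 for Prkab1, −0.951 for Prkag2 and −0.011 for Stk11, and the interactions were 0.215 for Prkaa2, −0.095 for Prkab1, −0.136 for Prkag1 and −1.977 for Prkag2. Values of Prkag2 from fits that use KO PBS 2 as deposited rest on row Prkag2_4, in which a computed column departed from its relation. The cause of these changes was not tested.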

Other observations

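In row Prkag2_4, the values of WT PBS 1, WT PBS 2 and KO PBS 1 less 10 FPKM are close to the MPTP profiles. This does not hold for KO PBS 2, deposited at 122.24 FPKM in this row. The values were known when this arithmetic was picked, and it was not tested. WT PBS 1, WT PBS 2 and KO PBS 1 would then be at 13.59, 13.06 and 12.52 FPKM, beside 13.04 in WT MPTP 1, 13.57 in KO MPTP 2 and the 12.24 that KO MPTP 1 implies for KO PBS 2. In row Prkab1_5 the same profiles less 1 FPKM would be at 1.37, 1.31 and 1.19 FPKM, beside 1.15, 1.56 and an implied 1.33. The table does not show how these values came about.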
